A study of Homo sapiens with 6 samples.

Results

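The genes described here are the BCL2 family, the caspases, the proteins that inhibit caspases, and the death receptors with their ligand TNFSF10 (TRAIL) and adaptors. They were chosen by symbol: of 37 named genes, 35 had at least 1 probe set whose annotation gives that symbol alone, out of 18132 genes measured that way. BIRC3 and RIPK1 were not analysed here. The groups were 3 arrays of cells given a lentivirus with an shRNA against SHCBP1 and 3 arrays of cells given a lentivirus with a control shRNA. Each of the 6 samples was hybridised to its own Affymetrix array. The labels name the line as TPC-1, from a human papillary thyroid carcinoma, but their extraction text names DLD1, a colorectal carcinoma line. Both groups carry a lentiviral shRNA, no label gives the time after infection, and no label describes a second hairpin against SHCBP1. The labels call the samples independent without naming separate cultures, so the p-values rest on a spread between samples that may be technical only.

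Apoptosis is run by 2 routes that meet at the caspases, proteases made as inactive precursors. In the mitochondrial route, BH3-only proteins respond to stress by blocking the anti-apoptotic BCL2 proteins or by activating BAX and BAK, which open the outer mitochondrial membrane and release cytochrome c. Cytochrome c and APAF1 then form the apoptosome, which activates caspase-9. In the other route, ligands such as TRAIL or FAS ligand gather receptors that recruit FADD and caspase-8, while CFLAR and the inhibitor of apoptosis proteins hold the caspases back. Papillary thyroid carcinoma cells often carry an active MAPK pathway, which is known to favour survival through this same network.

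In the deposited log2 values, the median of the 6 arrays is 0 for every probe set. They show differences between arrays and hold no expression level, so no gene can be called abundant or absent, and the labelled cell type could not be checked against thyroid or intestinal markers. A gene's value is the mean over its probe sets, and a log2 fold change is the mean of the SHCBP1 shRNA arrays minus the mean of the control shRNA arrays. A change passed at a Benjamini-Hochberg adjusted p under 0.05 in limma's moderated test over all 18132 genes. With 3 arrays in each group, their number sets the precision. In bulk RNA, fewer cells expressing a gene and less RNA per cell cannot be told apart.

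The targeted gene, SHCBP1 (Entrez Gene 79801), had values of -0.95, -0.76 and -0.72 in the SHCBP1 shRNA arrays, against 0.72, 0.76 and 0.71 in the control shRNA arrays. Its log2 fold change was -1.54 ± 0.06 (SE, n = 3 arrays per group, limma adjusted p = 1.87e-06). The SHCBP1 shRNA arrays gave more signal for poly-A spike-in transcripts, which go into the RNA ahead of labelling, by 0.46 ± 0.05 on the log2 scale (SE, mean of 12 probe sets), and by 0.35 to 0.54 for the 4 transcripts one by one. A probe set for the 5′ part of 28S ribosomal RNA was higher by 2.80 ± 0.03, and the ratio of 3′ to 5′ signal of ACTB, a sign of RNA quality, differed by -0.08 ± 0.02 (SE), and that of GAPDH by -0.0059 ± 0.0155. The part of these differences in the results below was not tested. Scaling the arrays to these controls lowers every fold change by 0.46 and puts the median of all genes at -0.44, against 0.022 as deposited. A rise or fall is thus always meant against the rest of the array. Under spike-in scaling 2 of the 35 genes were higher and 29 lower. No array stood apart: the SD of the difference between 2 arrays of a group was 0.131 to 0.140, and 0.345 to 0.352 between groups.

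Of the 35 genes, 13 rose and 9 fell in the SHCBP1 shRNA arrays. These are 62.9% of the genes, beside 41% of all genes tested, of which 22% rose and 19% fell. The largest fall was that of PMAIP1, which encodes the BH3-only protein NOXA (1.88-fold). The largest rise was that of BIRC2, which encodes the inhibitor of apoptosis protein cIAP1 (1.84-fold). In 25 of the 35 genes (71.4%) the arrays of the groups did not overlap, which was so for 50% of all genes. Of these 25, BCL2L11, BID and CASP9 did not pass the test. In size of change, 6 genes (17.1%) passed with at least 0.5 on the log2 scale, as did 8.21% of all genes. A size of 1 was reached by 0 of the 35 and by 1.22% of all genes. The median log2 fold change of the 35 genes was 0.014, beside 0.022 for all genes, and their median size was 0.19, beside 0.11.

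Genes of both sides of the pathway moved in both directions. Of 27 genes known mainly for promoting cell death, 11 rose and 6 fell. Of 8 known mainly for restraining it, 2 rose and 3 fell. Over all genes 22% rose and 19% fell, the shares to set beside these counts and those by role below. Among the 13 that did not pass, fold changes lay between -0.12 and 0.12 on the log2 scale, with 95% confidence bounds from -0.22 to 0.29.

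**Figure D1:**
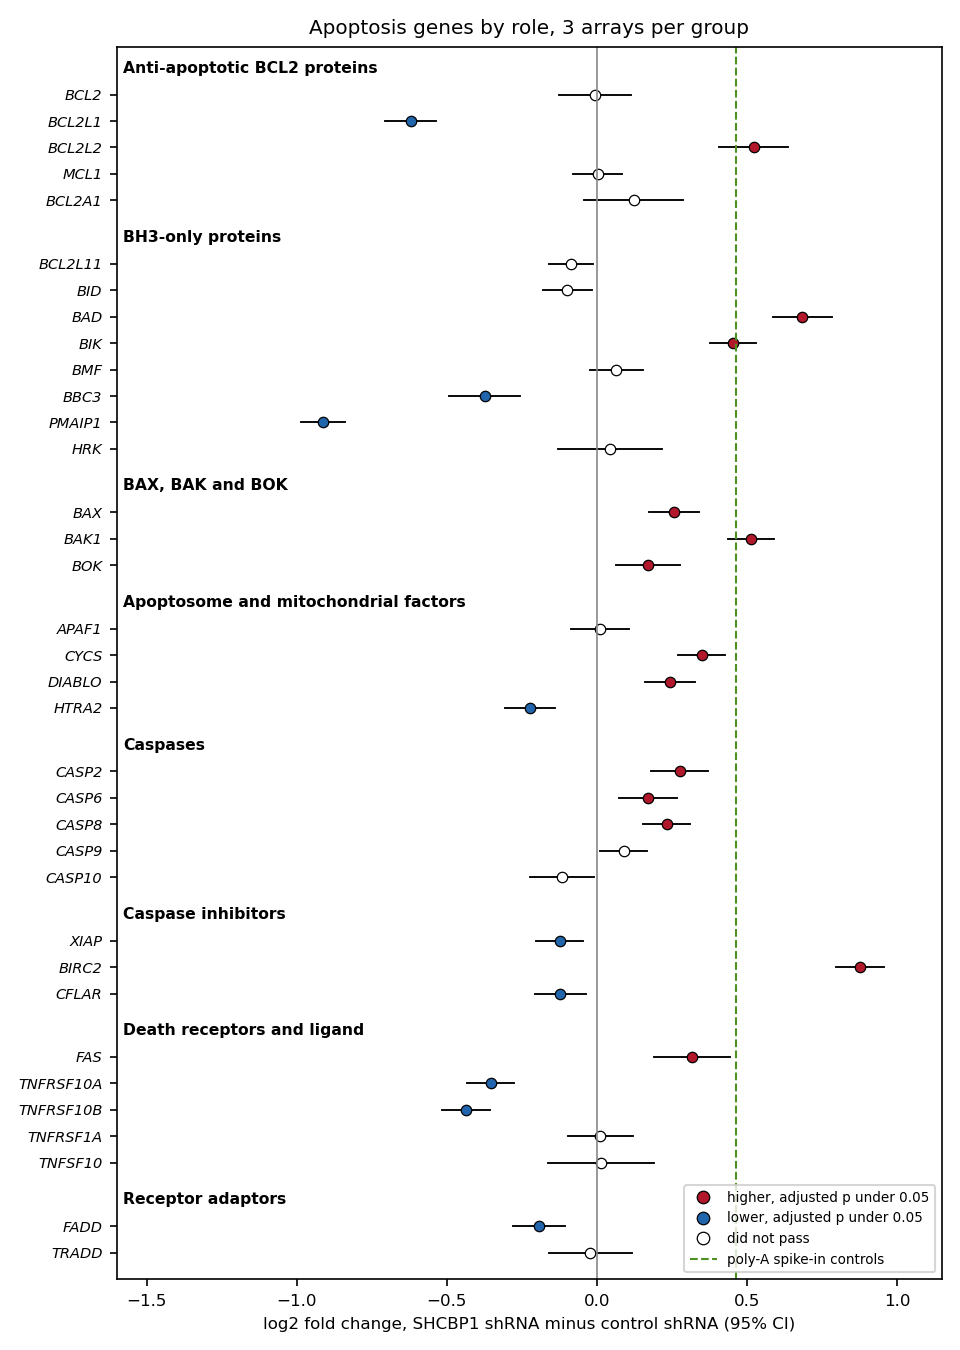
Log2 fold change (SHCBP1 shRNA minus control shRNA, horizontal axis) of each of the 35 genes with its 95% confidence interval, grouped by role, with filled points for genes that passed limma's test and a dashed line at the value of the poly-A spike-in controls (0.46). PMAIP1 lies furthest to the left (-0.91) and BIRC2 furthest to the right (0.88), and of the 13 genes that rose relative to the other genes, 4 lie to the right of the spike-in line.

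Anti-apoptotic BCL2 proteins bind and neutralise BH3-only proteins and BAX or BAK. Of 5 such genes, 1 fell and 1 rose. BCL2L1 (Entrez Gene 598), which encodes BCL-XL, had values of -0.28, -0.30 and -0.31 in the SHCBP1 shRNA arrays, against 0.35, 0.27 and 0.35 in the control shRNA arrays. All 3 SHCBP1 shRNA arrays lay below all control shRNA arrays, and the log2 fold change was -0.62 ± 0.04 (SE, limma adjusted p = 9.6e-06), or 1.54-fold lower. All 3 of its probe sets fell, by 0.56 to 0.66 on the log2 scale.

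BCL2L2 (Entrez Gene 599), which encodes BCL-W, moved the other way. Its values were 0.17, 0.30 and 0.23 in the SHCBP1 shRNA arrays, against -0.32, -0.33 and -0.22 in the control shRNA arrays, with no overlap. It rose by 0.52 ± 0.05 on the log2 scale (SE, limma adjusted p = 9.83e-05), or 1.44-fold, and by 0.32 to 0.63 in its 3 probe sets. Its value under spike-in scaling was 0.06 and did not pass (limma adjusted p = 0.352).

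BCL2, the founding member of the family, and MCL1, whose short-lived protein binds NOXA, did not pass. The log2 fold change of BCL2 was -0.0059 ± 0.0509 (SE), with a 95% confidence interval of -0.13 to 0.11, and that of MCL1 was 0.0021 ± 0.0344, with an interval of -0.08 to 0.08. For both genes the mean covers probe sets that disagree. The 6 probe sets of BCL2 ran from -0.16 to 0.17, and 1 of them passed, as lower (-0.16). Of the 6 probe sets of MCL1, 2 fell, by 0.19 and 0.16, and 1 rose, by 0.20. MCL1 was the only one of the 35 genes with probe sets that passed in both directions. BCL2A1, a target of NF-kB that encodes BFL-1, stood at 0.12 ± 0.07 on the log2 scale (SE), with groups that overlapped. Of its 2 probe sets, 1 passed alone, as higher (0.20), and the other gave 0.04.

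BH3-only proteins are the stress sensors of the family. Of 8, 2 rose and 2 fell. PMAIP1 (Entrez Gene 5366) had values of -0.46, -0.47 and -0.47 in the SHCBP1 shRNA arrays, against 0.43, 0.44 and 0.46 in the control shRNA arrays. The groups were far apart beside an SD of 0.010 and 0.016 within them. Its log2 fold change was -0.91 ± 0.03 (SE, 95% confidence interval -0.99 to -0.84, limma adjusted p = 1.27e-06), and 218 of all genes fell further. Its 2 probe sets fell by 0.96 and 0.87.

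BBC3, which encodes PUMA, a BH3-only protein best known as a p53 target, fell less. Its values were -0.11, -0.19 and -0.27 in the SHCBP1 shRNA arrays, against 0.21, 0.11 and 0.22 in the control shRNA arrays. The log2 fold change was -0.37 ± 0.05 (SE, limma adjusted p = 0.000687), and its 2 probe sets fell by 0.41 and 0.34.

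BAD (Entrez Gene 572) encodes a BH3-only protein that binds BCL-XL and is held inactive by phosphorylation downstream of growth factor receptors. Its values were 0.30, 0.32 and 0.33 in the SHCBP1 shRNA arrays, against -0.37, -0.43 and -0.30 in the control shRNA arrays. It rose by 0.68 ± 0.04 on the log2 scale (SE, limma adjusted p = 1.21e-05), or 1.61-fold, with rises of 0.66 and 0.71 in its 2 probe sets. With BIRC2 it was one of 2 genes of the set that stayed higher past the threshold under spike-in scaling, at 0.22.

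BIK, a BH3-only protein of the endoplasmic reticulum, had values of 0.21, 0.23 and 0.22 in the SHCBP1 shRNA arrays, against -0.24, -0.26 and -0.20 in the control shRNA arrays. It rose by 0.45 ± 0.03 on the log2 scale (SE, limma adjusted p = 2.76e-05), the size of the spike-in shift, and its spike-in scaled value was -0.0095. Its 3 probe sets gave 0.44 to 0.47. All of its SHCBP1 shRNA arrays lay above its control shRNA arrays.

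The other BH3-only genes did not pass. BCL2L11, which encodes BIM, had a log2 fold change of -0.09 ± 0.03 (SE, limma adjusted p = 0.0651), and BID, which is cleaved by caspase-8 and so links the routes, had -0.10 ± 0.03 (adjusted p = 0.0565). In both genes the SHCBP1 shRNA arrays all lay below the control shRNA arrays, and both passed when the quantile normalization was repeated. Of the 14 probe sets of BCL2L11, 1 fell, by 0.41, and the others lay between -0.22 and 0.07 without passing. BMF and HRK overlapped between the groups, with 0.07 ± 0.04 and 0.04 ± 0.07 (SE).

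**Figure D2:**
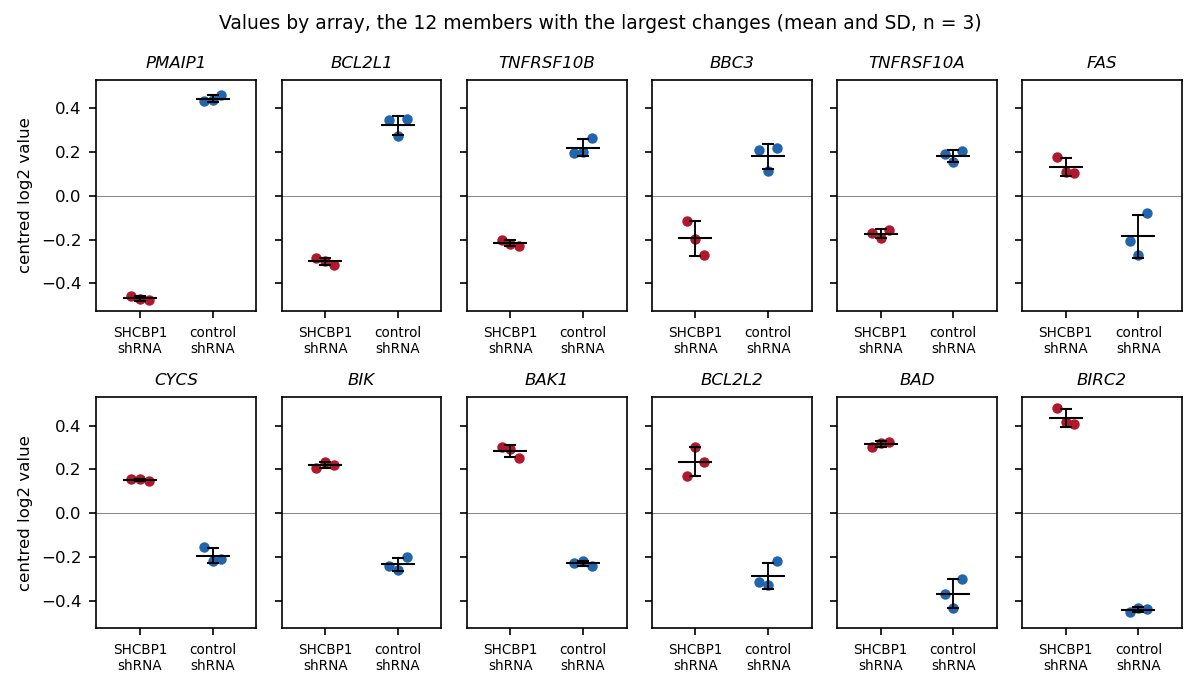
Centred log2 value (vertical axis) on each array for the 12 genes of the set with the largest changes that passed, SHCBP1 shRNA arrays on the left and control shRNA arrays on the right of each panel, with the group mean and SD (n = 3). In all 12 panels the groups do not overlap, from PMAIP1 with a log2 fold change of -0.91 to BIRC2 with 0.88, and the 7 genes that lie higher in the SHCBP1 shRNA arrays do so relative to the other genes (BIK, CYCS and FAS are below 0 under spike-in scaling).

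BAX, BAK and BOK form the pores of the outer mitochondrial membrane. The 3 genes rose against the rest of the array, although under spike-in scaling BAX and BOK were lower (-0.21 and -0.29) and BAK1 was at 0.05 without passing. BAK1 (Entrez Gene 578) had values of 0.30, 0.29 and 0.25 in the SHCBP1 shRNA arrays, against -0.23, -0.22 and -0.24 in the control shRNA arrays. It rose by 0.51 ± 0.03 on the log2 scale (SE, limma adjusted p = 1.46e-05), with 4 of its 5 probe sets higher and a range of 0.14 to 0.74.

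BAX, whose protein moves from the cytosol to mitochondria when activated, had values of 0.13, 0.14 and 0.10 in the SHCBP1 shRNA arrays, against -0.09, -0.17 and -0.14 in the control shRNA arrays. Its rise was 0.26 ± 0.04 on the log2 scale (SE, limma adjusted p = 0.000773), smaller than that of BAK1. BOK rose by 0.17 ± 0.05 (SE, limma adjusted p = 0.0189). The call of BOK was lost without SHCBP1 shRNA replicate 1 or 3 or control shRNA replicate 2 or 3 (limma adjusted p of 0.0510 to 0.0569), and without probe sets that Affymetrix marks as shared between transcripts (limma adjusted p = 0.0837).

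Downstream of the pores, cytochrome c (CYCS), SMAC (DIABLO) and HTRA2 are released into the cytosol. SMAC and HTRA2 bind the inhibitor of apoptosis proteins there. CYCS had values of 0.16, 0.16 and 0.15 in the SHCBP1 shRNA arrays, against -0.16, -0.22 and -0.21 in the control shRNA arrays. It rose by 0.35 ± 0.03 on the log2 scale (SE, limma adjusted p = 0.000108), with 0.14 to 0.57 in its 3 probe sets, and DIABLO by 0.24 ± 0.04 (adjusted p = 0.00102) on 1 probe set. Both were below 0 under spike-in scaling (-0.12 and -0.22). CYCS has near-identical pseudogenes, and without probe sets marked as shared its value was 0.57 (limma adjusted p = 9.99e-05).

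HTRA2, a serine protease of the mitochondrial intermembrane space, went the other way, with -0.09, -0.12 and -0.15 in the SHCBP1 shRNA arrays, against 0.11, 0.07 and 0.13 in the control shRNA arrays. It fell by 0.22 ± 0.04 on the log2 scale (SE, limma adjusted p = 0.0015), with 3 of 4 probe sets lower. APAF1, the scaffold of the apoptosome, did not pass, with 0.0090 ± 0.0411 (SE) and a 95% confidence interval of -0.09 to 0.11.

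Of 5 caspase genes, 3 rose relative to the other genes and 0 fell, and all 3 were below 0 under spike-in scaling (-0.19 to -0.29). CASP8, the initiator recruited by death receptors, had values of 0.12, 0.14 and 0.10 in the SHCBP1 shRNA arrays, against -0.09, -0.15 and -0.09 in the control shRNA arrays. It rose by 0.23 ± 0.03 (SE, limma adjusted p = 0.001), with 6 of its 8 probe sets higher and a range of -0.13 to 0.58. Without probe sets marked as shared (_s_at and _x_at), the value was 0.14 (limma adjusted p = 0.0431). CASP2, an initiator that responds to DNA damage and to extra centrosomes, rose by 0.28 ± 0.04 (adjusted p = 0.00111), with all 3 probe sets higher.

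CASP6, an executioner that cleaves lamins, had values of 0.04, 0.17 and 0.10 in the SHCBP1 shRNA arrays, against -0.10, -0.04 and -0.06 in the control shRNA arrays. It rose by 0.17 ± 0.04 (SE, limma adjusted p = 0.0131) on 1 probe set, which Affymetrix marks as holding probes shared with other transcripts. The annotation pairs CASP6 with PLA2G12A, a phospholipase gene, on 2 further probe sets, which were left out by the rule. Those fell by 1.21 and 0.53 on the log2 scale (adjusted p over all probe sets of 8.07e-06 and 0.000262), against the direction of the probe set that names CASP6 alone. The transcript that the annotation gives for the first of them is one of PLA2G12A, and which gene the shared probe sets measured was not tested.

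CASP9, the caspase of the apoptosome, had 0.09 ± 0.03 (SE, limma adjusted p = 0.0740) on probe sets that gave 0.23, which passed, and -0.06, which did not. CASP10, a relative of CASP8, had -0.12 ± 0.05 (adjusted p = 0.0796), and passed when SHCBP1 shRNA replicate 3 was left out (-0.16, adjusted p = 0.0248). Of its 5 probe sets, 1 passed alone, as lower (-0.23).

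Among the genes grouped as caspase inhibitors, the largest change was that of BIRC2 (Entrez Gene 329), whose protein cIAP1 is a ubiquitin ligase of the TNF receptor complex. It had values of 0.48, 0.42 and 0.41 in the SHCBP1 shRNA arrays, against -0.45, -0.43 and -0.44 in the control shRNA arrays. It rose by 0.88 ± 0.03 on the log2 scale (SE, 95% confidence interval 0.80 to 0.96, limma adjusted p = 1.89e-06), and 97 of all genes rose further. All 5 of its probe sets rose, by 0.74 to 0.97, and the spike-in scaled value was 0.41.

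XIAP, known for binding caspases directly, and CFLAR, whose protein c-FLIP competes with caspase-8, fell slightly. XIAP had values of -0.12, -0.05 and -0.06 in the SHCBP1 shRNA arrays, against 0.04, 0.05 and 0.05 in the control shRNA arrays, and fell by 0.12 ± 0.03 on the log2 scale (SE, limma adjusted p = 0.0204). CFLAR gave -0.12 ± 0.04 (adjusted p = 0.0302). For each, 1 probe set passed alone, of 5 for XIAP and of 9 for CFLAR. The call of XIAP was lost without SHCBP1 shRNA replicate 1 or any 1 of the control shRNA replicates (limma adjusted p of 0.0512 to 0.0691), and that of CFLAR without SHCBP1 shRNA replicate 2 or 3 or control shRNA replicate 1 or 3 (0.0679 to 0.0981). Both were lost with the median of the probe sets (limma adjusted p = 0.0660 and 0.111).

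**Figure D3:**
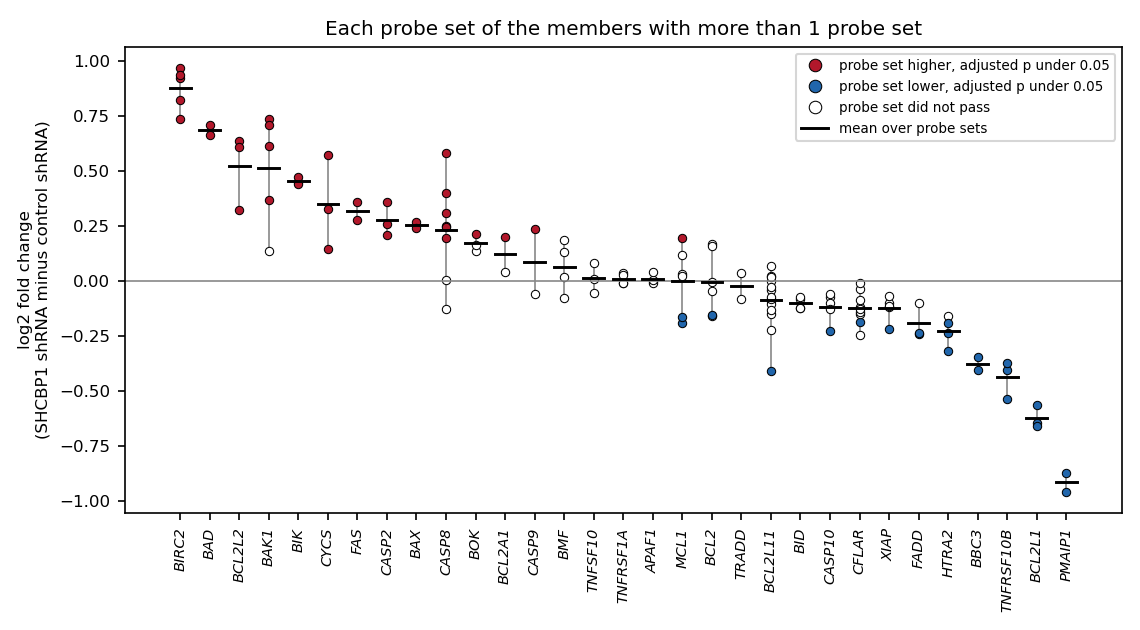
Log2 fold change (SHCBP1 shRNA minus control shRNA, vertical axis) of each probe set of the 31 genes with more than 1 probe set, with filled points for probe sets that passed on their own and a bar at the mean used for the gene. All 5 probe sets of BIRC2 and both of PMAIP1 lie together, while those of CASP8 run from -0.13 to 0.58 and MCL1 has 2 lower and 1 higher.

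The death receptors moved apart. The TRAIL receptor genes of the set, TNFRSF10A (DR4) and TNFRSF10B (DR5), both fell. Further TRAIL receptor genes outside the set were measured and did not pass. TNFRSF10B had values of -0.20, -0.22 and -0.23 in the SHCBP1 shRNA arrays, against 0.20, 0.20 and 0.26 in the control shRNA arrays. It fell by 0.44 ± 0.03 on the log2 scale (SE, limma adjusted p = 4.25e-05), and its 3 probe sets fell by 0.37 to 0.54. TNFRSF10A had -0.17, -0.19 and -0.15 in the SHCBP1 shRNA arrays, against 0.19, 0.15 and 0.20 in the control shRNA arrays. It fell by 0.35 ± 0.03 (adjusted p = 9.51e-05) on 1 probe set. In both genes the groups did not overlap.

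FAS, the receptor of FAS ligand and a known p53 target, rose instead, and under spike-in scaling it was lower (-0.15). Its values were 0.18, 0.11 and 0.11 in the SHCBP1 shRNA arrays, against -0.20, -0.27 and -0.08 in the control shRNA arrays. The rise was 0.32 ± 0.05 on the log2 scale (SE, limma adjusted p = 0.00225), with 0.28 and 0.36 in its 2 probe sets. The spread within the control shRNA arrays (SD 0.097) was wider than for the TRAIL receptors (SD 0.026 and 0.038).

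TNFRSF1A, the main receptor of TNF, had a log2 fold change of 0.011 ± 0.047 (SE), with an interval of -0.10 to 0.12. TNFSF10, which encodes TRAIL itself, had 0.014 ± 0.075, with an interval of -0.16 to 0.19. Neither passed, and in both the groups overlapped. FADD, the adaptor that joins FAS and the TRAIL receptors to caspase-8, had -0.13, -0.14 and -0.05 in the SHCBP1 shRNA arrays, against 0.07, 0.08 and 0.11 in the control shRNA arrays. It fell by 0.19 ± 0.04 (SE, limma adjusted p = 0.00423), with 2 of 3 probe sets lower. TRADD, the adaptor of TNFRSF1A, did not pass (-0.02 ± 0.06).

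The 35 genes had 130 probe sets in all, of which 39 rose and 23 fell when each was tested alone. Of all 44988 probe sets that name 1 gene, 9091 rose and 8178 fell. Over all 49293 probe sets other than controls, 38% were called in either direction. Of the 22 genes that passed, 12 had more than 1 probe set with every one called in the gene's direction. Of the 31 genes with more than 1 probe set, 10 held values on both sides of 0. Neither of these counts was made over all genes, so whether they are unusual cannot be said.

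The upstream sequences of the 4 genes with the largest changes that passed show which short motifs lie next to their starts. They are the 250 bases before the most upstream start in RefSeq (GRCh38.p14), 5′ to 3′ on the gene's strand, for the 2 that fell most and the 2 that rose most. Capitals mark the half-site TGACGT, on either strand, which is bound by CREB and ATF proteins.
PMAIP1, chr18:59899746-59899995, plus strand: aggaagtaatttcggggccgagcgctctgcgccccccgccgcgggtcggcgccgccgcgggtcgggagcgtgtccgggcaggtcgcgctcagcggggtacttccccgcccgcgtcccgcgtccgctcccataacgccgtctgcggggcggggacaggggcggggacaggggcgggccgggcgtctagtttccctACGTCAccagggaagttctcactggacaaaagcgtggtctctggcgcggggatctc
BCL2L1, chr20:31723964-31724213, minus strand: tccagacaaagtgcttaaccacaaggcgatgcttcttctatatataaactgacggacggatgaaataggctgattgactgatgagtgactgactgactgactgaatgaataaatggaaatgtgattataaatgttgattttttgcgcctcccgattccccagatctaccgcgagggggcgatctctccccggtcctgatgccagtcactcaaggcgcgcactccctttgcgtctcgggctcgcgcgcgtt
BIRC2, chr11:102346964-102347213, plus strand: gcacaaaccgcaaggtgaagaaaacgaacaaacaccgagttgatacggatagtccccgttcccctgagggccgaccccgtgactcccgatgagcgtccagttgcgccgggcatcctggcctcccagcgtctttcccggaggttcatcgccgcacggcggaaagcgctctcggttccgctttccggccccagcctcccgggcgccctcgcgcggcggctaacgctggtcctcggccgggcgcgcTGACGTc
BAD, chr11:64284705-64284954, minus strand: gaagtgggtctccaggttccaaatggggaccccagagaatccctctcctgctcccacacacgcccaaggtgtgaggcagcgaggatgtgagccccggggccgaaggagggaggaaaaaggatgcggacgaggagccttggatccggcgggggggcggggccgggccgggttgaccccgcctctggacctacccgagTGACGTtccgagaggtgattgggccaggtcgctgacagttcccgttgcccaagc

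PMAIP1, which fell, and BIRC2 and BAD, which rose, each held 1 copy of TGACGT, beginning 56, 7 and 54 bases before the start, and BCL2L1 held 0. Upstream windows were found for 28 of the 35 genes, all but BCL2L2, MCL1, BIK, CASP10, TRADD, TNFRSF10A and TNFRSF10B. TGACGT occurred in 4 of the 28 (14.3%), the fourth being CYCS, beside 7.42% of the windows of all 27305 genes in the table. The 4 comprise 3 of 11 genes that rose, 1 of 7 that fell and 0 of 10 that did not pass. The GC box GGGCGG, a site of SP1, occurred in 64.3% of the 28 windows, beside 42.2% of all, with 4 matches in PMAIP1, 1 in BAD and 0 in BCL2L1 and BIRC2. The MYC site CACGTG occurred in 2 of the 28 (BBC3 and BAX), beside 6.46% of all. TTGCATCA, a composite site of ATF4 and C/EBP proteins, occurred in 1 (BCL2A1), beside 0.828% of all. All motifs were searched on both strands, and each was counted on its own whether or not it overlapped another. They were chosen after the values were seen, and a match describes letters only. The 27305 genes were not limited to the 18132 measured on the arrays, so the shares come from unlike sets and were not tested against each other.

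A wider list of the pathway, with other receptors, adaptors and regulators, had 54 of 57 genes measured, with a median of -0.0056. Of the 54, 14 rose (25.9%) and 14 fell (25.9%), beside 22% and 19% of all genes. RBCK1 and RNF31, which encode HOIL-1 and HOIP of the linear ubiquitin ligase that modifies the TNF receptor complex, had log2 fold changes of -0.68 ± 0.03 and -0.60 ± 0.05 (SE, limma adjusted p = 3.12e-06 and 7.57e-05) and so both fell. The probe sets of RBCK1 ranged from -0.91 to -0.14, and RNF31 rests on 1. SHARPIN, the gene of the remaining subunit, named after its value was seen, did not pass (0.036 ± 0.036, adjusted p = 0.487). TNFAIP3, which encodes the deubiquitinase A20 that ends such signalling, rose by 0.36 ± 0.04 (adjusted p = 0.000253), and its spike-in scaled value was -0.11.

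TNFAIP8, a gene induced by TNF, fell by 0.87 ± 0.06 on the log2 scale (SE, limma adjusted p = 1.41e-05). Its values were -0.52, -0.36 and -0.51 in the SHCBP1 shRNA arrays, against 0.38, 0.38 and 0.48 in the control shRNA arrays. TNFRSF21, the death receptor DR6, fell by 0.48 ± 0.03 (adjusted p = 1.71e-05), and VDAC3, a channel of the outer mitochondrial membrane, rose by 0.50 ± 0.03 (adjusted p = 1.69e-05, 0.04 under spike-in scaling).

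Of transcription factors known to act on these genes, 19 of 21 were measured. Of the 19, 5 rose (26.3%) and 7 fell (36.8%), beside 22% and 19% of all genes. MYC fell by 1.21 ± 0.05 on the log2 scale (SE, limma adjusted p = 1.91e-06). DDIT3 (CHOP), which is known to raise TNFRSF10B and BBC3 under endoplasmic reticulum stress, fell by 0.56 ± 0.05 (adjusted p = 6.18e-05). ATF3 and ATF4, which are known to act on PMAIP1, fell by 0.41 ± 0.04 and 0.37 ± 0.03, and FOXO3, known for its action on BCL2L11, by 0.28 ± 0.04. E2F1 rose by 0.58 ± 0.09 (adjusted p = 0.00099), with values of 0.38, 0.29 and 0.15 in the SHCBP1 shRNA arrays, against -0.15, -0.37 and -0.43 in the control shRNA arrays, and 0.12 under spike-in scaling. MYC, ATF4 and E2F1 each rest on 1 probe set. Of the 7 probe sets of ATF3, 4 passed as lower, and the range was -0.70 to -0.02. Whether these factors bear on the apoptosis genes was not tested.

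**Figure D4:**
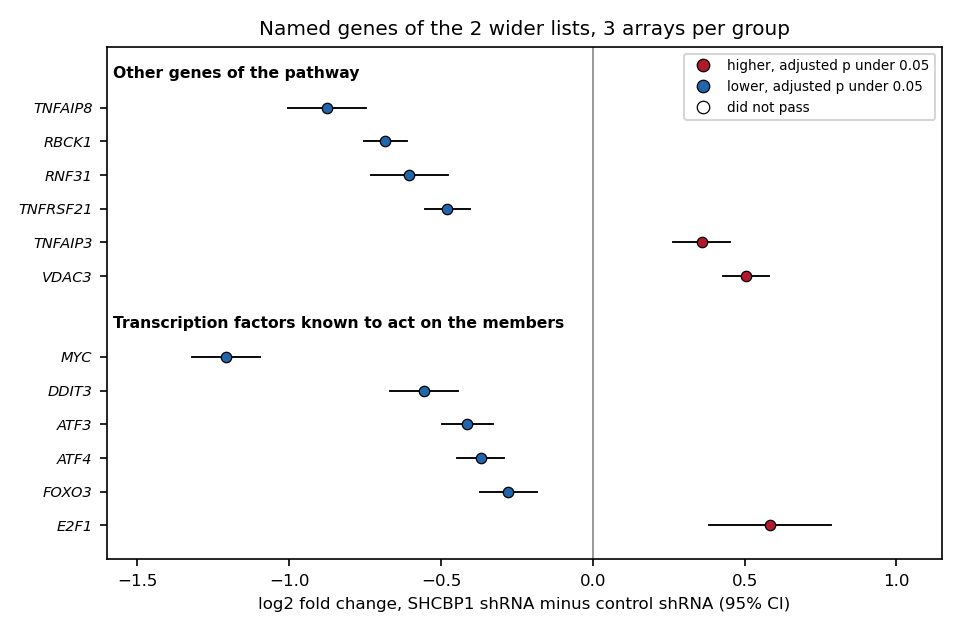
Log2 fold change (SHCBP1 shRNA minus control shRNA, horizontal axis) with 95% confidence interval of the 6 genes with the largest changes that passed in each of the 2 wider lists. MYC lies furthest to the left (-1.21), and E2F1 furthest to the right (0.58, or 0.12 under spike-in scaling).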

How the data were processed

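RNA from 6 samples was hybridised to Affymetrix arrays, 1 per sample, and groups and replicate numbers were taken from the sample titles. The authors deposited 1 log2 value per probe set and array, made with RMA per the submitters' processing notes. The log base was taken from RMA, and the RMA software is not given in the sources used here. The deposited log2 values have a median of 0 in each row, a centring that no source describes and that leaves no level or background, so no filter on dim genes was possible. RMA's quantile step removes a shift common to all genes.

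Of 49395 probe sets, 102 are controls, 44988 name 1 gene, 1832 name several and 2473 name none. Gene values are means of the probe sets that name 1 gene. The comparison used limma 3.58.1 (lmFit, eBayes; R 4.3.3) without pairing, and p-values were adjusted by Benjamini-Hochberg over 18132 genes. Errors are limma's moderated SE. The fit was tested on simulated data with independent noise, few changed genes and no shift common to an array. That test checks the code and cannot vouch for the calls made here. Symbols of all 35 genes matched RefSeq by Entrez number. All 35 genes, the 6 largest changes that passed of each wider list, and SHCBP1 are named. The genes, lists and tests were chosen with earlier results of these data known.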

Additional observations from a re-analysis of the deposited data

How the results depend on the processing

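The counts of the 35 genes that passed in each direction, their median, and the fold change of each named gene were recomputed under 13 alternatives; counts of non-overlapping groups, of the wider lists and of probe sets were not. Of the 22 genes that passed, 18 kept their call and direction under the 12 alternatives other than spike-in scaling. BOK, XIAP and CFLAR did not, and CASP6 has no value without _s_at and _x_at probe sets. SHCBP1 and the 12 genes named from the wider lists kept theirs in the 152 values these alternatives gave. Leaving out 1 array at a time gave 12 to 13 genes higher, 7 to 9 lower, and a median log2 fold change of 0.016 to 0.048. Under spike-in scaling 2 genes were higher and 29 lower, the median was -0.45, and 363 of all genes were higher and 16515 lower. It turned 17 fold changes of the 35 genes below 0 by construction: MCL1 -0.46, BCL2A1 -0.34, BIK -0.0095, BMF -0.40, HRK -0.42, BAX -0.21, BOK -0.29, APAF1 -0.45, CYCS -0.12, DIABLO -0.22, CASP2 -0.19, CASP6 -0.29, CASP8 -0.23, CASP9 -0.38, FAS -0.15, TNFRSF1A -0.45 and TNFSF10 -0.45, and, of the wider lists, TNFAIP3 -0.11. The median log2 fold change was 0.035 when _s_at and _x_at probe sets were dropped, which left 34 genes and not CASP6, and 0.042 with the median of the probe sets, where 13 were higher and 7 lower.

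With the replicate number as a block, 13 genes were higher and 9 lower, and no call of the 35 genes changed. Correlations of deviations from the group means over probe sets were 0.016, -0.030 and 0.058 for same-numbered arrays. For arrays with different numbers they ran from -0.077 to 0.063. These values cannot show whether same-numbered samples were prepared together.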
